A study of Homo sapiens with 6 samples.

Results

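The zinc finger genes of human chromosome 19 were followed in LN229 cells, an established human glioblastoma line, with and without ursodeoxycholic acid (UDCA), a bile acid given to patients with cholestasis. The members are the protein-coding genes of chromosome 19 in GENCODE 29 whose symbol is ZNF followed by a number. GENCODE 29 holds 249 of them, the deposited table lists 245 among its 33890 genes, and 189 reached the level needed for testing. ZNF560, ZNF835 and the readthrough genes ZNF625-ZNF20 and ZNF816-ZNF321P have no row in the table, and no value is given for them. The study compared 3 libraries of LN229 cells kept in 800 µM UDCA for 48 h with 3 libraries of untreated LN229 cells, and its title asks about UDCA as an agent against glioblastoma. All 6 libraries came from 1 cell line with polyadenylated RNA as template, so the results describe that line only.

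Most of these genes encode proteins with an array of C2H2 zinc fingers that binds DNA, preceded in many by a KRAB domain. The KRAB domain recruits the scaffold protein TRIM28, which in turn brings the histone methyltransferase SETDB1, HP1 proteins and the NuRD complex, so that the bound site is packed into heterochromatin marked by methylated H3K9. Transposable elements are the best known targets of KRAB zinc finger proteins, and the genes sit in tandem clusters on chromosome 19 that grew by duplication. Neighbouring genes are therefore often paralogs with similar exons.

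A C2H2 pattern matched a median of 12 fingers per member in the annotated proteins, with a maximum of 36 in ZNF208. A KRAB A-box pattern matched 205 of the 245 members, a number that is too low where the pattern misses a diverged domain. Of the 245 members, 28 share more than 25% of their exonic 50-base words with another gene, and the median member shares 5.07%. Values of such genes are uncertain, since the handling of reads that fit several places, of strand and of overlapping genes is not given in the sources used here.

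Members were ordered along the chromosome and split where 2 neighbours lay more than 1 Mb apart, which gave 9 clusters with at least 5 members in the table and 11 scattered members. The cluster in which lower genes outnumbered higher ones runs from ZNF101 to ZNF254, over 4.46 Mb of the short arm next to the centromere (chr19:19668796-24129961, GRCh38). It holds the ZNF91 subfamily, which expanded in primates. RefSeq (GRCh38.p14) gave a promoter, from 250 bases before to 50 bases after the start, for 213 of the 245 members, 29 of them in this cluster. For genes with several starts the first one listed was used. The stretches of 120 bases before the start are shown for 4 genes of the cluster to display how alike their promoters are whichever way the gene changed: ZNF43 (chr19:21836183-21836302, minus strand) and ZNF431 (chr19:21141920-21142039, plus strand) fell with UDCA, while ZNF493 (chr19:21397013-21397132, plus strand) and ZNF91 (chr19:23395472-23395591, minus strand) rose. Capitals mark CCAAT and CTTCCGG.
ZNF43: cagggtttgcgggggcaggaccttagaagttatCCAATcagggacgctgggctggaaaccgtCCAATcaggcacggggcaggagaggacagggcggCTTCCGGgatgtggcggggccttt
ZNF431: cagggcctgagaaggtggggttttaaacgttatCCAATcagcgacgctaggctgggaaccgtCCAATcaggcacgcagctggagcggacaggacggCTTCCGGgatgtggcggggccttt
ZNF493: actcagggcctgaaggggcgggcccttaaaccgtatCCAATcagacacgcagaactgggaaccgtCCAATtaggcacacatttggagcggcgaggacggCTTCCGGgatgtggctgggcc
ZNF91: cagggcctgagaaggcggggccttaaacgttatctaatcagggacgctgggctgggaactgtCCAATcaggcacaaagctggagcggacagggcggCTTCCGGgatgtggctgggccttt

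For contrast, the same stretch is shown for 2 genes of the long-arm cluster from ZNF575 to ZNF296, ZNF180 (chr19:44500523-44500642, minus strand), which fell, and ZNF222 (chr19:44025259-44025378, plus strand), which rose. Both hold CTTCCGG, in capitals, and neither holds CCAAT on either strand of the stretch.
ZNF180: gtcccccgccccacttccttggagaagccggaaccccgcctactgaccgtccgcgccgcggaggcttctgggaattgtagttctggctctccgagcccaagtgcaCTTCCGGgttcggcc
ZNF222: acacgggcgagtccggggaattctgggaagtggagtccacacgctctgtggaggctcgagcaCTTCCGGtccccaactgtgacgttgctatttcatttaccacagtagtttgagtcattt

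The deposited values are FPKM, and whole reads could be recovered from them. The reads summed to 15988951, 17045218 and 16975081 in the UDCA libraries and to 16639832, 17203507 and 17743022 in the control libraries. At this depth 3 reads in a gene with 1 kb of exons correspond to 0.169 to 0.188 FPKM, which covers counting error only. A gene was tested if 3 or more of the 6 libraries reached 1 FPKM. Changes below are differences of mean log2(FPKM + 1), UDCA minus control, a scale on which changes of low genes come out too small, and calls are limma adjusted p-values under 0.05 over all 14380 genes tested. The labels do not say that the libraries are from separate cultures, so p-values measure only how far these samples spread, which may be technical. In RNA from whole cultures, fewer expressing cells and less RNA per cell cannot be told apart. Of 9 markers of glioma and glial lines, 7 were tested, of which EGFR rose (9.17 ± 0.142 FPKM with UDCA and 6.74 ± 0.166 FPKM in control), OLIG2 did not pass and 5 fell, among them SOX2 at 2.58 ± 0.0887 FPKM with UDCA and 77.0 ± 1.49 FPKM in control (SD, n = 3 each, as for every ± below unless SE is named), while GFAP and SOX9 stayed under 1 FPKM in both groups. The FPKM of the 9 summed to between 164 and 167 with UDCA and between 749 and 765 in control. Of 3 neuron markers only SNAP25 was tested, and it fell to 4.28 ± 0.605 FPKM with UDCA, against 6.19 ± 0.441 FPKM in control. The listed markers of macrophages, endothelium and epithelium were all under 1 FPKM on average in both groups, with CDH5, KRT5 and CDH1 at 0 in all control libraries, and the part of the marker changes in the results below was not tested.

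Chromosome 19 ZNF genes rose more often than they fell with UDCA. Of the 189 tested, 92 rose, 43 fell and 54 did not pass the test. The groups did not overlap in 147 of the 189 tested members, against 82.8% of all genes tested. Over all genes tested, 80.8% were called, 45.1% higher and 35.7% lower, so the members' 48.7% higher lies near the background and their 22.8% lower lies under it. Their median log2 change was 0.18, against 0.10 over all genes tested. It was 0.07 over all 245 members with no filter on low values. ZNF genes on other chromosomes had 97 rises and 67 falls among 205 tested, with a median of 0.11, and the other protein-coding genes of chromosome 19 had 250 rises and 256 falls among 611 tested, with a median of 0.01. Changes of at least 2-fold on this scale were found in 20 members upward and 6 downward, against 12.3% upward and 12% downward of all genes tested. With libraries scaled by the median ratio of genes the median was 0.10 for the members and 0.02 for all genes.

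The FPKM of all 245 members summed to 705, 698 and 688 in the UDCA libraries, against 544, 530 and 533 in the control libraries. Every UDCA sum lies above every control sum. The members took 0.382%, 0.379% and 0.372% of the reads with UDCA and 0.290%, 0.284% and 0.286% in control. Levels were low throughout, with a median of 2.30 FPKM over the tested members. A mean under 1 FPKM over the 6 libraries was found for 61 members, 75 had 1 to 2 FPKM, 86 had 2 to 5 FPKM and 23 had 5 FPKM or more.

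By level, rises outnumbered falls from 2 FPKM upward. Of the 75 members with 1 to 2 FPKM, 19 rose and 27 fell. In the class of 2 to 5 FPKM the numbers were 53 and 12, and at 5 FPKM or more 17 rose and 2 fell. Other genes were counted by a different measure, groups that do not overlap. Among other protein-coding genes with 2 to 5 FPKM, 42.5% had all UDCA libraries above control and 41.6% had them below. At 5 FPKM or more 49.5% lay above and 39.8% below, and at 1 to 2 FPKM 40.6% and 41.0%. By that measure, members outside ZNF101 to ZNF254 had 61.0% above and 15.9% below at 2 to 5 FPKM. They had 78.3% and 8.7% at 5 FPKM or more, and 38.3% and 30.0% at 1 to 2 FPKM. Across the 189 tested members, which share libraries and are not independent replicates, Pearson's r between log2 level and change was 0.39, and that between the number of fingers and change was 0.092. Level was the mean over the same libraries that gave the change, so level is not independent of change in these classes or in r. The minimum level shapes these counts too. It was reached in more UDCA than control libraries by 20 tested members, of which 18 were called higher. It was reached in more control than UDCA libraries by 28, of which 24 were called lower. The other tested members reached it in all libraries, 140 of them, or in equal numbers of both groups (1).

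**Figure D1:**
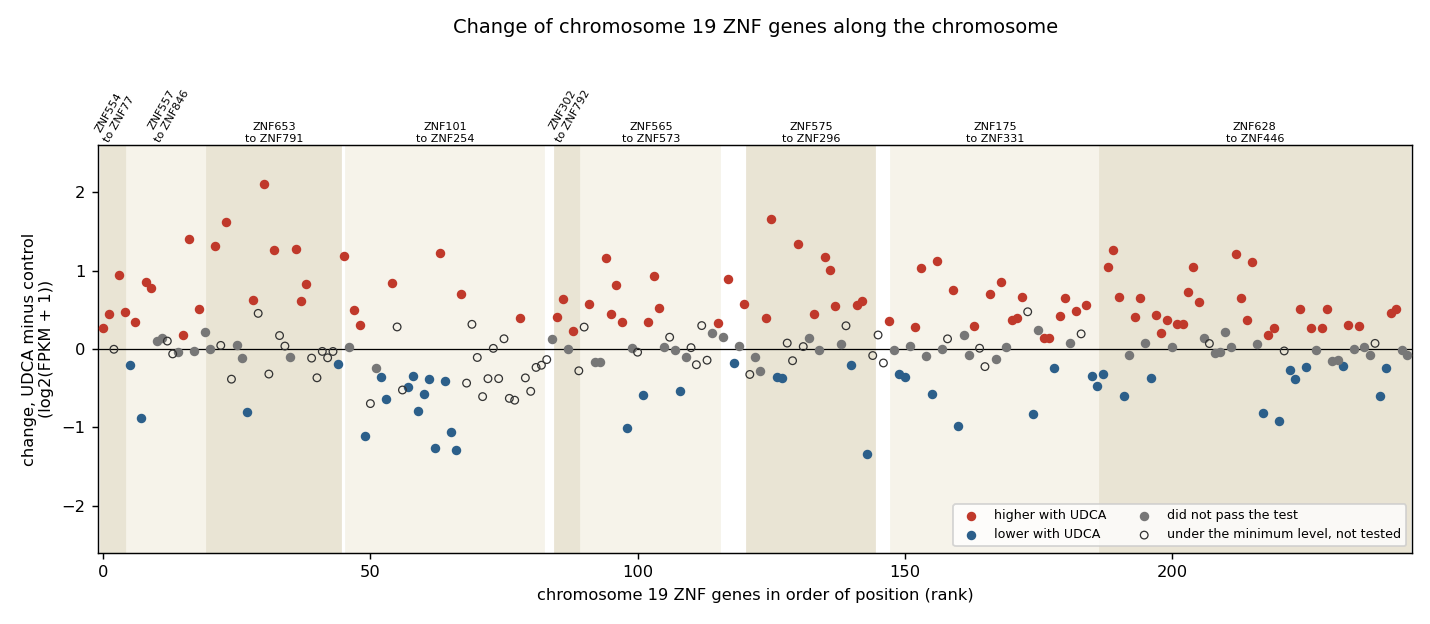
Log2 change, UDCA minus control, of the 245 listed ZNF genes in their order along chromosome 19, with shaded bands for the 9 clusters. Filled points are tested genes coloured by call and open points are genes under the minimum level. Points under the zero line gather in the band from ZNF101 to ZNF254, where 26 of 37 genes had all UDCA libraries below all control libraries.

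In the cluster from ZNF101 to ZNF254 most genes had less RNA with UDCA, and a minority had more. Of its 37 genes, tested or not, 26 had all UDCA libraries below all control libraries, 9 had them above and 2 overlapped. Over every gene of the table, 27.1% lay above and 23.4% below. Of the 208 members elsewhere on the chromosome, 104 lay above and 44 below, so that the share below control was 70.3% in the cluster, against 21.2% elsewhere. The FPKM of the cluster summed to 31.8, 32.8 and 30.5 in the UDCA libraries, against 43.1, 42.5 and 42.6 in the control libraries, a ratio of means of 0.742. It is the 1 cluster of the 9 whose summed level was lower with UDCA.

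The low level of these genes was set against that of others. Among members of the cluster with a mean of 0.2 to 1 FPKM, 11 of 13 lay below and 2 above, while of 1873 other protein-coding genes in that range 37.4% lay below and 33.4% above. At 1 to 2 FPKM, 12 of 15 lay below and 2 above, against 41.0% and 40.6% of 1072 other protein-coding genes. All 4 members of the cluster with 2 to 5 FPKM lay above control. The other chromosome 19 ZNF genes had 7 of 29 below and 10 above at 0.2 to 1 FPKM, and 18 of 60 below and 23 above at 1 to 2 FPKM.

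Of the 37 genes, 20 were tested, 6 of which rose, 12 fell and 2 did not pass. All 12 that fell had reached the minimum level in more control than UDCA libraries. Of the 6 genes that reached it in all libraries 5 rose and none fell, so the tested genes are a selected part of the cluster. Among the 17 untested genes, the ratio of summed reads with its exact 95% interval lay below 1 for 13 and above 1 for 2. Over all 56 untested members it lay below 1 for 27 and above 1 for 12, so falls outnumbered rises there too. The interval covers counting error only, not the spread between libraries. With limma's voom on recovered reads, which reached 33 of the 37, 24 fell and 8 rose, against 36.5% lower and 44.1% higher of all 16764 genes in that fit. The median change of the cluster was -0.37 for the 20 tested genes and -0.90 for the 33 in the read-based fit, and it was -0.64 for the 20 with a pseudocount of 0.1.

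ZNF43 had the lowest level relative to control among the tested genes of the cluster. Its FPKM was 0.369, 0.346 and 0.402 in the UDCA libraries, against 2.22, 2.43 and 2.42 in the control libraries. All UDCA values lie far below the lowest control value. The log2 change was -1.29 ± 0.0677 (SE; limma adjusted p = 2.24e-06), and 161 reads with UDCA stood against 1054 in control. ZNF738 had 0.673, 0.751 and 0.830 FPKM with UDCA and 3.31, 3.14 and 3.20 FPKM in control. The groups are far apart here too, with a log2 change of -1.27 (limma adjusted p = 1.75e-06). ZNF253 averaged 0.760 ± 0.186 FPKM with UDCA and 2.80 ± 0.0915 FPKM in control (SD, n = 3 each; limma adjusted p = 2.2e-05). ZNF100, named after its values were seen, averaged 0.368 ± 0.0499 FPKM with UDCA and 1.85 ± 0.142 FPKM in control.

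ZNF93, a repressor of LINE-1 elements of the L1PA3 and L1PA4 families in primates, stayed under the minimum level. It had 0.191, 0.305 and 0.338 FPKM with UDCA, against 0.873, 1.23 and 1.12 FPKM in control. The 78 reads with UDCA and 310 in control give a ratio of 0.26 after scaling to the totals, with an exact 95% interval of 0.2 to 0.334 for counting error only. Still lower genes of the cluster, chosen after their values were seen, were nearly unread with UDCA. ZNF681 had 17 reads over the 3 UDCA libraries and 179 over the 3 control libraries, and ZNF98 had 6 and 99. ZNF724 had 1 read with UDCA and 100 in control, a ratio of 0.0103 with a counting interval of 0.000259 to 0.0588. ZNF724 and ZNF98 share 48.7% and 41.0% of their exonic 50-base words with other genes, so their reads may have been split between paralogs.

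The rises lay among the falls and not in a block of their own. ZNF493 had 3.35, 3.85 and 3.19 FPKM with UDCA, against 0.927, 0.835 and 0.980 FPKM in control. All UDCA values are more than 3 FPKM and all control values less than 1 FPKM, so ZNF493 passed the minimum level through the UDCA libraries. The log2 change was 1.22 (limma adjusted p = 5.58e-06). ZNF493 begins 17.8 kb after the end of ZNF738, which fell. ZNF208, the member with most fingers, likewise rose (0.70; limma adjusted p = 8.03e-05) 80.8 kb from ZNF43. ZNF208 was named after its values were seen.

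ZNF91, a repressor of SVA retrotransposons, was among the genes that rose. It had 2.84, 3.01 and 2.59 FPKM with UDCA, against 2.02, 1.93 and 1.78 FPKM in control. The groups do not overlap, and the log2 change was 0.39 (limma adjusted p = 0.00125). ZNF737 averaged 3.36 ± 0.146 FPKM with UDCA and 1.44 ± 0.195 FPKM in control (0.84; limma adjusted p = 3.7e-05). The untested genes whose read ratio lay above 1 were ZNF626 and ZNF676, both named because they make up that count.

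**Figure D2:**
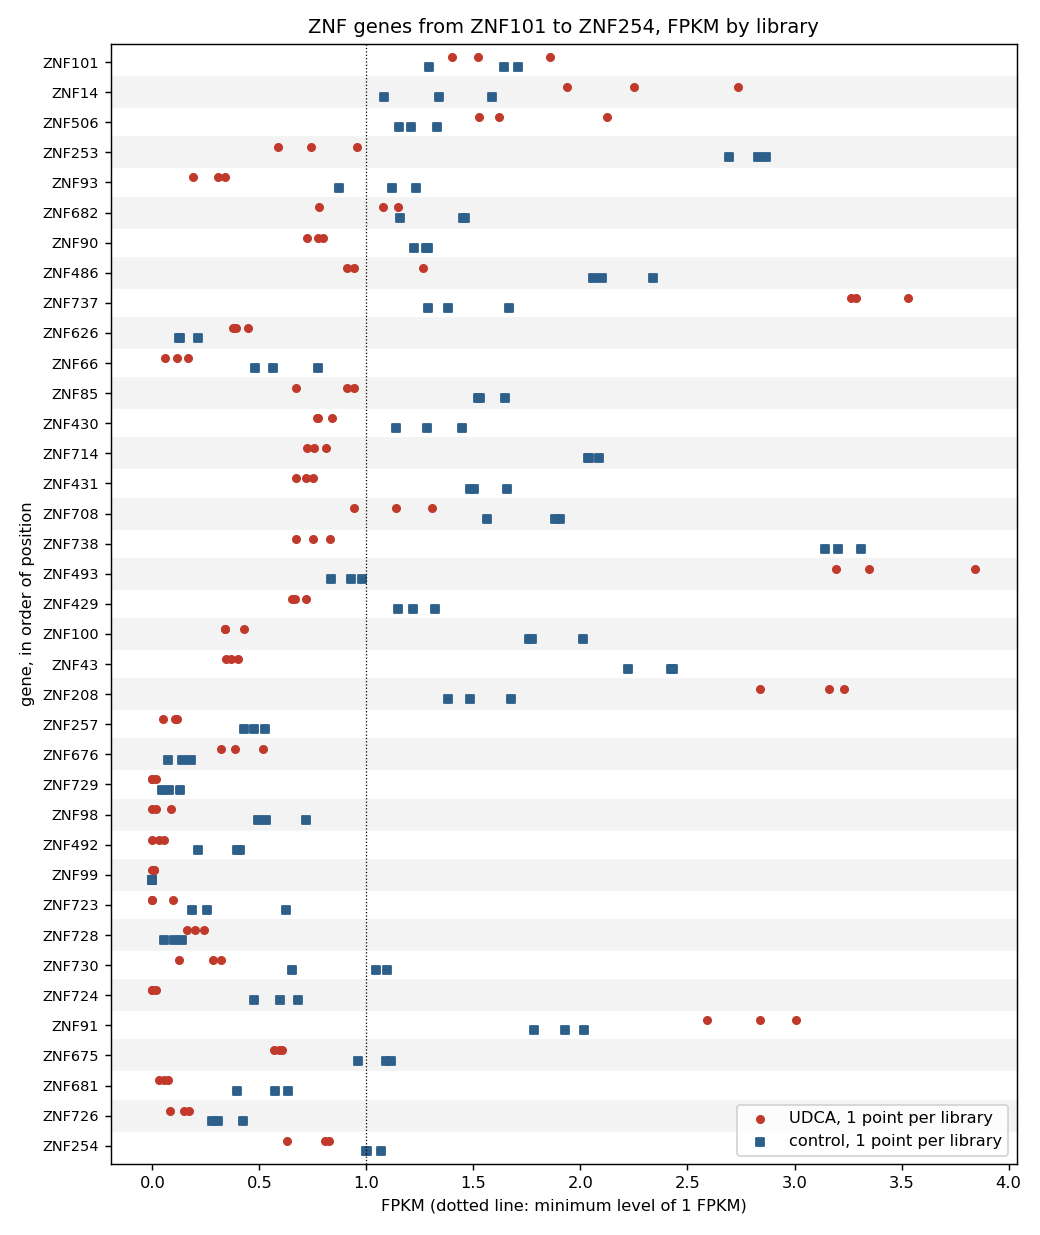
FPKM of the 37 ZNF genes from ZNF101 to ZNF254 in order of position, with red circles for the 3 UDCA libraries above blue squares for the 3 control libraries of each gene, and a dotted line at the minimum level of 1 FPKM. In 26 genes all circles lie left of all squares, and ZNF737, ZNF493, ZNF208 and ZNF91 show the opposite order with UDCA values above 2.5 FPKM.

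The promoters of this cluster resembled each other closely, in genes that fell and in genes that rose. Median identity over the 406 pairs of its 300-base promoters was 78.7%, and within the other 8 clusters it was between 59.3% and 64.0%. CCAAT, the core of the site known for the factor NF-Y, was searched on both strands and found in 29 of 29 promoters of the cluster, in 46.2% of the 184 promoters of other members, and in 35.7% of 27305 promoters in the RefSeq table. The other clusters ranged from 20.0% (ZNF575 to ZNF296) to 5 of 5 promoters (ZNF554 to ZNF77), and a link of CCAAT with the changes was not tested. From ZNF101 to ZNF254 CCAAT was present in 22 of 22 genes that lay below control and in 6 of 6 that lay above. In the stretches shown above, CCAAT begins 87 and 58 bases before the start in ZNF43 and ZNF431, 84 and 55 bases in ZNF493, and 58 bases in ZNF91.

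CCGGAAG, whose reverse complement is CTTCCGG and which resembles sites of ETS factors, was found in 21 of the 29 promoters, in 17 of 22 below control and in 4 of 6 above. It stood in 41.8% of the promoters of other members and in 10.7% of all promoters. The other clusters ranged from 0 of 5 promoters (ZNF554 to ZNF77) to 3 of 4 (ZNF302 to ZNF792). The share was 62.5% from ZNF175 to ZNF331 and 62.3% from ZNF628 to ZNF446. With 1 more letter the count ran the other way: CCGGAAGT was found in 0 of the 29, in 45 of 184 promoters of other members (24.5%) and in 4.44% of all promoters. CCGGAAGT was also found in 0 of 5 promoters from ZNF554 to ZNF77 and in 0 of 13 from ZNF557 to ZNF846. From ZNF628 to ZNF446 it stood in 49.1%. TTTGGCGC, the core of an E2F site, stood in 5 of the 29 and in 4 of 184 elsewhere, against 0.659% of all promoters. Within the cluster it stood in 5 of 22 promoters below control and in 0 of 6 above. TATAAA, searched as well, stood in 3 of 22 below and in 0 of 6 above. TGACGTCA and TGATGCAA were found in 0 of the 29. With only 6 promoters above control, a link of either TTTGGCGC or TATAAA with the falls was not tested. The motifs were chosen after values were seen, CCAAT and CTTCCGG do not overlap in the stretches shown, and a match is one of letters, not a shown site of binding. The median number of CpG dinucleotides was 10 per promoter in the cluster, 22 in the other members and 14 in all promoters.

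The cluster from ZNF653 to ZNF791 on the short arm held the largest rise of the tested members. Of its 25 listed genes 14 were tested, 8 of which rose, 2 fell and 4 did not pass. That is 57.1% higher and 14.3% lower, beside 45.1% and 35.7% of all genes tested. Of the 8 rises, 3 reached the minimum level in more UDCA than control libraries. Among the 11 untested genes the interval of the read ratio lay below 1 for 5 and above 1 for 2. The median log2 change of the 14 was 0.62, but 0.07 over the 20 genes that voom on recovered reads reached and 0.04 over all 25 with no filter. Over all its listed genes, 10 lay above control, 8 below and 7 overlapped. ZNF433 had 6.83, 5.45 and 6.33 FPKM with UDCA, against 0.703, 0.680 and 0.622 FPKM in control. No control value reaches 1 FPKM and no UDCA value falls under 5 FPKM, so ZNF433 passed the minimum level through the UDCA libraries. Its log2 change was 2.11 ± 0.0815 (SE; limma adjusted p = 4.82e-07), and 17.6% of its exonic bases lie in exons of other genes.

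ZNF441 had 7.76, 8.20 and 7.61 FPKM with UDCA and 2.10, 1.63 and 1.92 FPKM in control. The groups are well apart, with a log2 change of 1.62 (limma adjusted p = 8.96e-07), and next to none of its exonic 50-base words (0.0211%) occur in another gene. ZNF627 averaged 7.28 ± 0.441 FPKM with UDCA and 2.34 ± 0.343 FPKM in control, and ZNF44 averaged 5.25 ± 0.410 FPKM with UDCA and 1.58 ± 0.101 FPKM in control (limma adjusted p = 7.32e-06 for ZNF627 and 2.28e-06 for ZNF44). ZNF791, the most abundant gene of this cluster, had 5.32 ± 0.416 FPKM with UDCA and 6.18 ± 0.203 FPKM in control (-0.19; limma adjusted p = 0.0203). That call did not pass without UDCA replicate 2 (adjusted p = 0.0505), without control replicate 1 (0.0503) or without control replicate 3 (0.0667) in the limma fit. CCAAT stood in 22 of 24 promoters of this cluster, and a link of CCAAT with the changes was not tested.

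The remaining short-arm clusters had summed levels above control. From ZNF554 to ZNF77, 4 of 4 tested genes rose, beside 45.1% of all genes tested. Of these 4, 2 reached the minimum level in more UDCA than control libraries. ZNF77 averaged 3.11 ± 0.211 FPKM with UDCA and 1.96 ± 0.277 FPKM in control. From ZNF557 to ZNF846, 6 of 13 tested genes rose and 2 fell, and the 46.2% that rose lies near the 45.1% of all genes tested. ZNF121 had 14.7, 14.6 and 13.7 FPKM with UDCA, against 4.72, 4.79 and 4.93 FPKM in control. Its UDCA values are all above 13 FPKM and its control values all under 5 FPKM, with a log2 change of 1.40 ± 0.0398 (SE; limma adjusted p = 1.09e-07). ZNF317 rose by 0.77 and was the most abundant gene of this cluster, at 12.7 ± 0.518 FPKM with UDCA and 7.04 ± 0.566 FPKM in control. ZNF414 fell, with 1.29, 1.68 and 1.77 FPKM with UDCA and 3.44, 3.90 and 3.86 FPKM in control (-0.88; limma adjusted p = 7.38e-05).

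**Figure D3:**
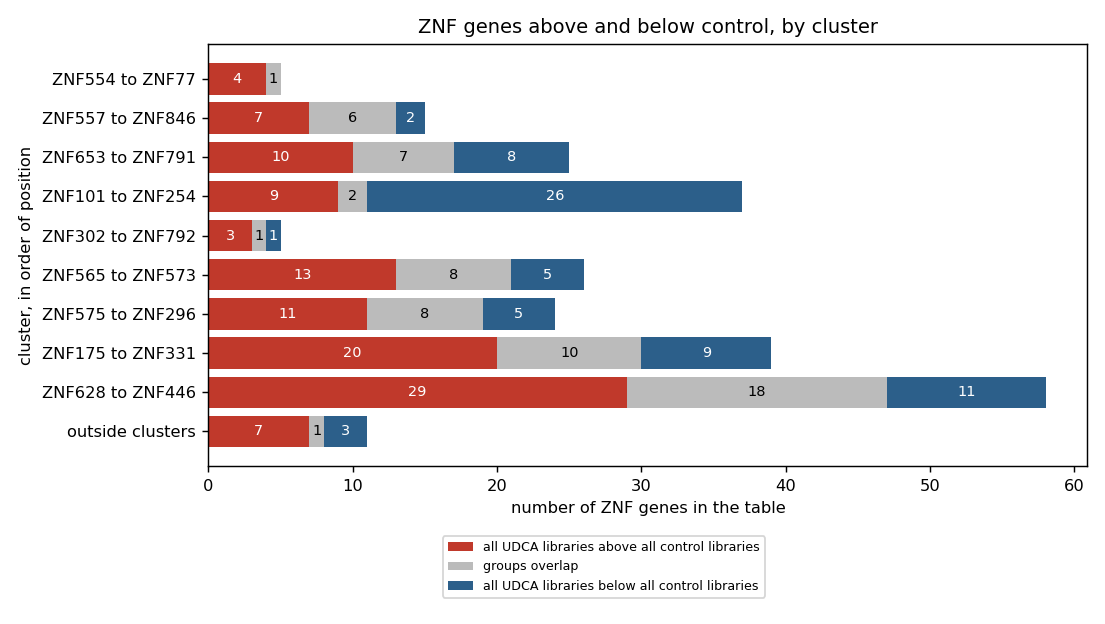
Number of listed ZNF genes in each cluster, in order of position from top to bottom, with all UDCA libraries above all control libraries (red), overlapping groups (grey) and all UDCA libraries below all control libraries (blue). The bar from ZNF101 to ZNF254 has 26 genes below and 9 above, and each of the other bars has fewer genes below than above.

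On the long arm, the clusters had more rises than falls, with medians between 0.14 and 0.32 beside 0.10 over all genes tested. With median-ratio scaling these medians lay between 0.07 and 0.24, and that from ZNF175 to ZNF331 was then 0.07 and that from ZNF628 to ZNF446 0.10, beside 0.02 over all genes. Their shares of rises, 47.1% to 50% in all but the cluster of 4 tested genes, lie near the 45.1% of all genes tested. From ZNF302 to ZNF792, 3 of 4 tested genes rose and none fell. ZNF302, its most abundant gene, averaged 13.7 ± 0.427 FPKM with UDCA and 10.1 ± 0.173 FPKM in control (0.41; limma adjusted p = 2.46e-05), and ZNF181 had a larger log2 change of 0.64.

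From ZNF565 to ZNF573, 9 of 19 tested genes rose, 3 fell and 7 did not pass. Of these, 1 rise and 1 fall were 2-fold or larger, among 20 such rises and 6 such falls over all members. The 3 genes that fell reached the minimum level in more control than UDCA libraries and are not named here. The cluster holds ZNF146, a protein made of zinc fingers without a KRAB domain and the most abundant member on chromosome 19. ZNF146 had 35.0, 34.6 and 32.2 FPKM with UDCA, against 22.7, 21.9 and 22.6 FPKM in control. The groups do not overlap, with a log2 change of 0.58 (limma adjusted p = 6.35e-06). ZNF420, known as APAK and as a repressor of the apoptotic branch of p53 signalling, averaged 3.25 ± 0.469 FPKM with UDCA and 1.22 ± 0.118 FPKM in control (0.93; limma adjusted p = 7.3e-05). ZNF529 rose by 1.15, ZNF568 by 0.34 and ZNF382, which passed the minimum level through the UDCA libraries, by 0.45. ZNF568 is the human gene related to mouse Zfp568, which represses a placental Igf2 transcript in mouse embryos. ZNF529 and ZNF382 overlap on opposite strands, so that reads at the overlap could belong to either.

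From ZNF575 to ZNF296, 9 of 18 tested genes rose, 4 fell and 5 did not pass, and it holds both the largest fall on the log2(FPKM + 1) scale and the second largest rise of the tested members. By the ratio of means ZNF43 was lower relative to control, 6.34-fold against 5.03-fold for ZNF180. ZNF180 had 0.719, 0.638 and 0.468 FPKM with UDCA, against 2.95, 3.11 and 3.11 FPKM in control. All UDCA values are under 1 FPKM, so ZNF180 passed the minimum level through the control libraries. The log2 change was -1.34 ± 0.0785 (SE; limma adjusted p = 4.01e-06) with 145 reads against 755. ZNF404 had 6.03, 5.25 and 4.92 FPKM with UDCA and 1.07, 1.01 and 0.978 FPKM in control, a log2 change of 1.66 (limma adjusted p = 1.07e-06). ZNF404 reached the minimum level in more UDCA than control libraries, and 17.6% of its exonic bases lie in exons of other genes. It lies 11.2 kb from ZNF45, the most abundant gene of the cluster, which fell to 6.47 ± 0.236 FPKM with UDCA, against 8.59 ± 0.550 FPKM in control. ZNF222 had 6.24, 7.5 and 6.18 FPKM with UDCA and 2.43, 1.39 and 2.34 FPKM in control, with 17.2% of its exonic bases in exons of other genes. ZNF224, a repressor that binds WT1, rose by 0.45 but has 40.5% of its exonic bases in exons of other genes.

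**Figure D4:**
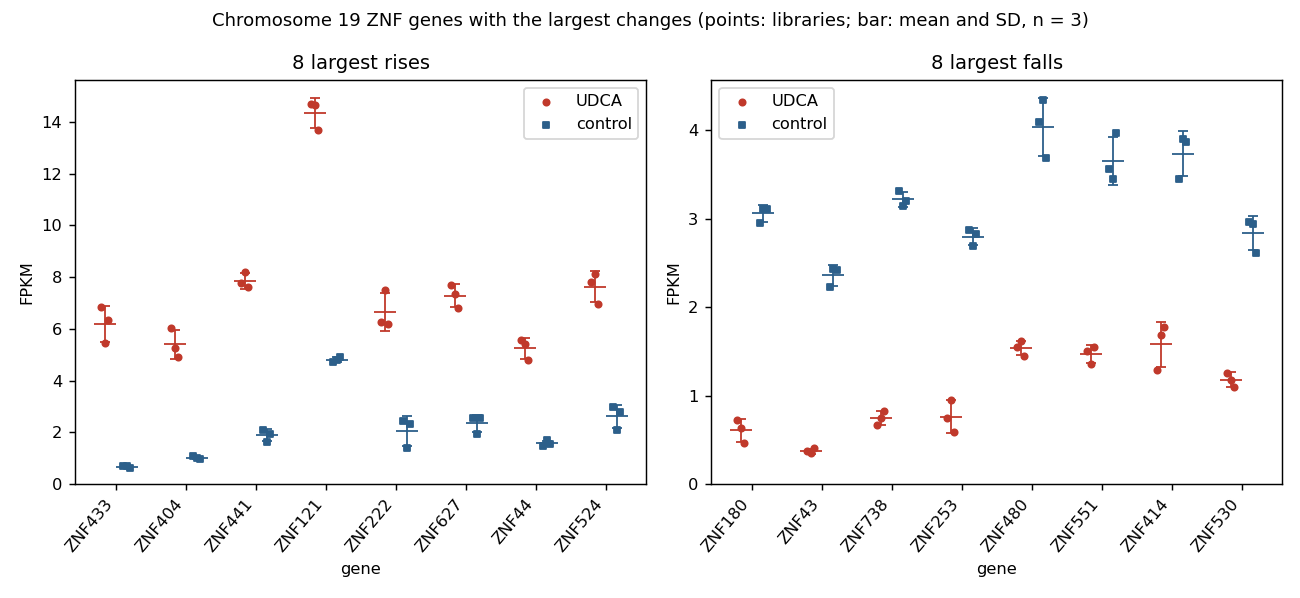
FPKM by library of the 8 members with the largest rises (left panel) and the 8 with the largest falls (right panel) in log2(FPKM + 1) among called members whose higher group averaged 2 FPKM or more, with UDCA left of control for each gene, horizontal bars for means and error bars for SD (n = 3). In none of these 16 genes do the groups overlap, and ZNF180, ZNF43, ZNF738 and ZNF253 are under 1 FPKM in every UDCA library.

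The largest clusters lie towards the end of the long arm. From ZNF175 to ZNF331, 16 of 34 tested genes rose, 8 fell and 10 did not pass. ZNF841 had 10.0, 10.3 and 10.1 FPKM with UDCA, against 4.54, 3.95 and 3.96 FPKM in control. Its UDCA values are all more than 5 FPKM above the highest control value, with a log2 change of 1.12 (limma adjusted p = 1.48e-06). ZNF808, which is required for human pancreas development, averaged 3.49 ± 0.178 FPKM with UDCA and 1.75 ± 0.130 FPKM in control (0.70; limma adjusted p = 3.61e-05). ZNF480 fell, with 1.55, 1.61 and 1.45 FPKM with UDCA and 4.09, 4.34 and 3.68 FPKM in control (-0.99; limma adjusted p = 9.07e-06). ZNF528, the most abundant gene of the cluster, rose by 0.30. ZNF175, a repressor of HIV transcription, had 2.37 ± 0.116 FPKM with UDCA and 2.38 ± 0.112 FPKM in control and did not pass (limma adjusted p = 0.906).

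From ZNF628 to ZNF446, the cluster nearest the end of the chromosome, 27 of 55 tested genes rose, 11 fell and 17 did not pass. ZNF579 had 15.2, 15.7 and 15.4 FPKM with UDCA, against 7.04, 6.53 and 7.37 FPKM in control. The 2 groups are at clearly separate levels, with a log2 change of 1.04 (limma adjusted p = 8.15e-07). ZNF524, which binds telomeric repeats, averaged 7.63 ± 0.590 FPKM with UDCA and 2.61 ± 0.456 FPKM in control (1.26; limma adjusted p = 2.35e-05). ZNF274, which recruits SETDB1 to the last exons of ZNF genes, rose by less. It had 2.99, 3.01 and 3.08 FPKM with UDCA, against 2.64, 2.09 and 2.15 FPKM in control. The groups do not overlap but come within 0.5 FPKM of each other, with a log2 change of 0.30 (limma adjusted p = 0.0087).

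Among the falls of the same cluster, ZNF551 averaged 1.47 ± 0.10 FPKM with UDCA and 3.66 ± 0.272 FPKM in control, and ZNF530 averaged 1.18 ± 0.0836 FPKM with UDCA and 2.84 ± 0.193 FPKM in control. ZNF581 was the most abundant gene of the cluster and rose by 0.40, while ZNF580, which overlaps it on the same strand, averaged 11.6 ± 0.808 FPKM with UDCA and 12.4 ± 0.547 FPKM in control and did not pass (limma adjusted p = 0.198). Reads in the exons common to ZNF580 and ZNF581 could have been given to either.

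Neighbours within clusters showed little likeness in their changes. Over 172 pairs of neighbouring tested members Pearson's r of their log2 changes was 0.12, as a description across genes that share libraries. That value also takes in differences between clusters. Within the clusters with enough pairs r lay between -0.28 and 0.26, was more often negative than positive, and was -0.13 from ZNF101 to ZNF254. In 91 pairs both genes were called, and in 58 of these both changed in the same direction. Inside the cluster from ZNF101 to ZNF254, 10 of 16 such pairs did. Rises outnumber falls over all members, and falls outnumber rises in that cluster, so many pairs would share a direction whatever their place. The counts of pairs do not allow for that. The span of that cluster also holds 8 tested genes that are no members and of which none is protein-coding, with 1 rise and 3 falls.

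Partners of KRAB zinc finger proteins and other genes that keep heterochromatin were described as 1 list of 28 genes. It takes in the TRIM28 and SETDB1 complexes, HP1, HUSH, NuRD and DNA methylation, and not all of its genes are known partners. Of these 28, 19 fell, 6 rose and 3 missed the threshold, beside 35.7% lower and 45.1% higher of all genes tested, and the median log2 change was -0.55. TRIM28, the scaffold, had 49.3, 50.6 and 51.3 FPKM with UDCA, against 101, 99.0 and 104 FPKM in control. All UDCA values lie near 50 FPKM and all control values near 100 FPKM (-0.99; limma adjusted p = 7.26e-08). SETDB1, the methyltransferase it brings, was higher instead, at 8.84, 7.72 and 8.02 FPKM with UDCA and 6.03, 5.62 and 6.30 FPKM in control (0.40; limma adjusted p = 0.000697).

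Among the readers and writers of methylated H3K9, CBX5, an HP1 protein, averaged 7.14 ± 0.277 FPKM with UDCA and 28.4 ± 0.383 FPKM in control, and the methyltransferase SUV39H1 averaged 0.350 ± 0.0866 FPKM with UDCA and 5.50 ± 0.255 FPKM in control. Of other such genes on the list, CBX1, CBX3 and EHMT2 fell too, while EHMT1, like SETDB1, rose, by 0.38. UHRF1, which brings DNMT1 to newly copied DNA, had 0.523, 0.559 and 0.412 FPKM with UDCA, against 22.9, 22.7 and 22.3 FPKM in control. It showed the largest fall of the list (-3.98; limma adjusted p = 2.95e-09). DNMT1, which maintains DNA methylation, averaged 8.90 ± 0.332 FPKM with UDCA and 35.8 ± 0.875 FPKM in control. HDAC1 and CHD3 of the NuRD complex fell by 1.48 and 1.37 on the log2 scale, as did MTA2, RBBP7, RBBP4 and CHD4 by less, while its members MTA1 and HDAC2 rose by 0.51 and 0.16. MPHOSPH8 of the HUSH complex, which silences transposable elements with SETDB1, rose by 0.48, and TASOR of the same complex, listed under its older symbol FAM208A, did not pass. PPHLN1, also of HUSH, fell (-0.23). The remaining rise of the list was that of MORC2 (0.30). TRIM28, SETDB1, MPHOSPH8, TASOR, PPHLN1, MORC2, CBX1, CBX3, EHMT1, EHMT2 and the NuRD members beside HDAC1 and CHD3 were named with values known, for their roles or to show both directions. The part of these changes in those of the ZNF genes was not tested.

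**Figure D5:**
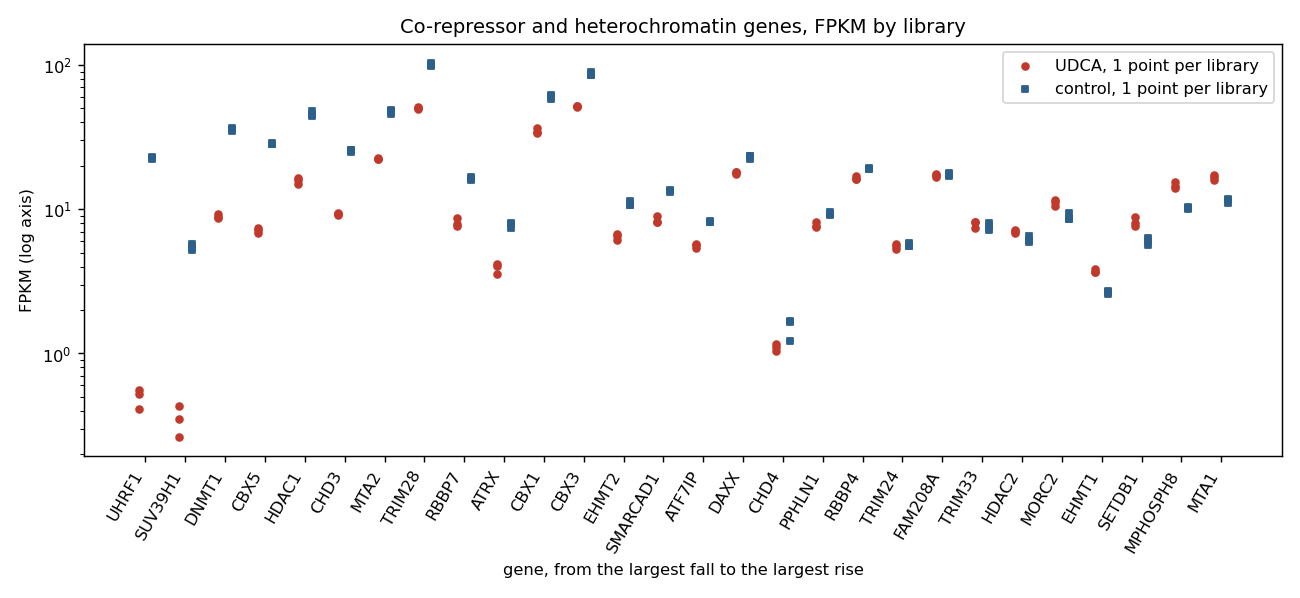
FPKM on a log axis of 28 genes for partners of KRAB zinc finger proteins and other heterochromatin genes, from the largest fall on the left to the largest rise on the right, with red circles for the UDCA libraries left of blue squares for the control libraries. UHRF1 and SUV39H1 are under 1 FPKM in all 3 UDCA libraries, and SETDB1, MPHOSPH8 and MTA1 at the right end lie above control.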

How the data were processed

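Polyadenylated RNA of LN229 cells, treated with 800 µM UDCA for 48 h or untreated, was made into Illumina TruSeq libraries, per the labels' protocols. HISAT2, Bowtie2 2.0.6 and GRCh38 are named in the submitters' processing notes, without role or order. How reads were counted, with what regard to strand and with what filters, is not given in the sources used here. FPKM is the unit of the deposited table, inferred from its values: multiplied by the length of the merged GENCODE 29 exons, each value was a whole multiple of 1 step per library, for 100% of values within 0.01 reads. Symbols and positions came from GENCODE 29, whose coordinates equal those of all 33890 listed genes. The members and lists were chosen with earlier results of these data known.

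FPKM were tested with limma 3.58.1 (R 4.3.3, trend) on log2(FPKM + 1), for genes of at least 1 FPKM in at least 3 libraries, 2-sided, with Benjamini-Hochberg adjustment over 14380 genes at 0.05. On simulated reads for UDCA against control, with 200 genes changed at a dispersion of 0.01, the fit recovered 25 of 67 genes with a 1.5-fold change, 64 of 67 with a 2-fold and 66 of 66 with a 4-fold change, and made 14 false calls in 13692 genes. Recovered reads were compared for low genes as ratios scaled to the totals with exact conditional binomial intervals. Named members were a fixed group of 10 and the 8 largest rises and 8 largest falls (higher group at 2 FPKM or more, groups apart). Further ones were the largest rise and the largest fall of each cluster under the same conditions, its most abundant member, and the most abundant members of all. These conditions left out larger changes at lower levels, such as the rise of ZNF57 (0.94) and the fall of ZNF69 (-0.81) in their clusters. Members named outside this rule were chosen after their values were seen, as the text says, and ZNF431 was chosen in the same way for its sequence. Fingers and KRAB boxes were matched in GENCODE 29 coding sequences, and promoters came from RefSeq. Replicate numbers did not pair the samples. Alternatives were quantile and median-ratio scaling, other filters, a pseudocount of 0.1, voom on recovered reads, a replicate block and leaving out each library. Python 3.11.15 and pandas 2.3.3 were used.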

Additional observations from a re-analysis of the deposited data

How the results depend on the processing

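The counts over all members, 92 higher and 43 lower, were 88 and 45 with quantile normalization, 84 and 48 with median-ratio scaling, 92 and 56 with no filter on low values (245 members), 92 and 42 with a pseudocount of 0.1, 89 and 41 with a filter on the mean, and 106 and 64 with voom on recovered reads (229 members). The members' median of 0.18 was 0.07 with no filter, 0.10 with median-ratio scaling and 0.26 with a pseudocount of 0.1, and with the filter applied again it was 0.11 to 0.12 without a UDCA library and 0.25 to 0.26 without a control library. No member was called in the opposite direction under any of these settings, with the replicate block or without any 1 library. With the replicate number as a block, 88 members rose and 38 fell, and 6427 and 5076 of all genes. Deviations of same-numbered libraries correlated at 0.014, -0.0012 and 0.0072, so the numbers share only a name. Where a control library was left out and the minimum level of 1 FPKM in 3 libraries applied again to the 5 left, an alternative chosen after seeing the data, 20, 23 and 21 members fell of 172 tested without control replicates 1, 2 and 3, since genes above 1 FPKM in 2 control libraries only are no longer tested. The median of the cluster from ZNF101 to ZNF254 then reversed, from -0.37 over 20 genes, to 0.37 without control replicate 1, 0.34 without control replicate 2 and 0.32 without control replicate 3, over the 10 genes left, and its falls numbered 2 in each case. With no filter 23 of its 37 genes fell, and with voom 24 of 33. ZNF175, which did not pass, changed sign without UDCA replicate 2 (0.013) and without control replicate 2 (0.017), with either filter, and ranged between -0.035 and 0.017 over the libraries left out. ZNF580 passed as lower with quantile normalization (-0.19), with median-ratio scaling (-0.17) and without UDCA replicate 2 (-0.14). Low reads limit precision for the 56 untested members, which had a median of 147.5 reads over the 6 libraries, and the read ratio's interval spanned 1 for 14 of them.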

Other observations

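Zinc finger genes of chromosome 19 under other symbols (ZFP, ZSCAN, ZBTB and related names) were a list of 18, of which the table holds 15. Of the 10 tested, 3 rose (ZBTB7A, ZSCAN18 and ZFP28), 4 fell (PEG3, ZIK1, ZBTB45 and ZFP30) and 3 missed the threshold. Their median log2 change was -0.16. ZBTB7A, a repressor known from blood development, had 20.6, 21.3 and 21.4 FPKM with UDCA, against 10.4, 10.5 and 10.4 FPKM in control. Its groups are far apart, with a log2 change of 0.95 (limma adjusted p = 1.11e-07). PEG3, an imprinted gene expressed from the paternal allele, averaged 2.15 ± 0.0837 FPKM with UDCA and 4.99 ± 0.233 FPKM in control (-0.93; limma adjusted p = 3.36e-06).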
